A study of Mus musculus with 18 samples.

Results

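The serine and one-carbon enzymes and the ATF4 stress response were followed here as 10 named genes, Phgdh, Psat1, Psph, Shmt2, Mthfd2, Atf4, Asns, Ddit3, Trib3 and Chac1, out of 21967 genes in the count table. They were taken by name, with earlier results of these data known, and were read in all 18 libraries. Their shares set beside those of all genes are therefore descriptions only. Of the 10, 8 had enough reads to be tested in every comparison, while Trib3 and Chac1 did not and are described by their counts.

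The libraries came from sorted bone marrow PreCFU-E and CFU-E, 2 successive committed erythroid progenitors, of mice carrying different Scf alleles (Scf, gene symbol Kitl, encodes the ligand of the KIT receptor). All 3 genotypes carry at least 1 floxed Scf allele. FL/FL mice have both alleles floxed, KO/FL mice have a null allele opposite the floxed one, and KO/FL;Lepr-Cre mice (Lepr-Cre mice below) add to these Cre expressed from the leptin receptor gene, which in bone marrow is active in perivascular stromal cells and not in the sorted progenitors. There were 3 mice per genotype, A, B and C, of which B was female and A and C male in each genotype, and every one of the 9 mice gave both cell types. The labels do not give ages. The 3 libraries of a group are from separate mice.

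Serine is made from a glycolytic intermediate by 3 enzymes in turn, PHGDH, PSAT1 and PSPH. SHMT2 then moves a carbon unit from serine to folate inside mitochondria, and MTHFD2 oxidises that unit for export and use in purine and thymidylate synthesis. ATF4 is a transcription factor whose mRNA is translated when eIF2α is phosphorylated, in erythroid cells chiefly by the haem-sensing kinase HRI (Eif2ak1). It activates amino acid synthesis and transport genes, and under strong stress also Ddit3 (CHOP), Trib3 and Chac1.

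Library totals ran from 3541066 counts (PreCFU-E of KO/FL A) to 9389122 counts (PreCFU-E of FL/FL A), and 10782 to 13536 genes were detected per library. The CFU-E library of Lepr-Cre B had the fewest detected genes, 10782, and results are given without it where it changes a call. Kit was at 211 to 848 CPM (counts scaled to a common library size, with edgeR's TMM factor) and Kitl had at most 1 count in 2 libraries, so these cells do not check the stromal deletion. Of 10 erythroid markers, all had counts in every group except 1, which was at 0 in KO/FL PreCFU-E, and their summed level was 5398 to 5811 CPM in FL/FL PreCFU-E, 6088 to 6705 in Lepr-Cre PreCFU-E and 6952 to 7972 in CFU-E of FL/FL and Lepr-Cre mice. Neutrophil and monocyte markers summed to at most 5.05 CPM and lymphoid markers to at most 11.6 CPM in any library, the latter in a Lepr-Cre CFU-E library. Stroma and endothelium markers are given with the CFU-E results.

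The promoters of 4 genes that were higher in Lepr-Cre than in FL/FL mice in both cell types are shown first. The windows are the bases before the RefSeq transcription start, up to 250, on GRCm38.p6, coding strand, 5′ to 3′, without bases that GENCODE places in an exon of the gene. Atf4 is at chr15:80254934-80255183 (+), Mthfd2 at chr6:83317607-83317854 (−), Psat1 at chr19:15925060-15925309 (−) and Shmt2 at chr10:127522445-127522694 (−). Those of Mthfd2 and Psat1 fall within the gene's GENCODE span, between exons of longer transcripts, and those of Atf4 and Shmt2 lie directly before it. Other genes in these windows were not sought. Capitals mark the CCAAT box, the motif read by NF-Y, as CCAAT or, on the opposite strand, ATTGG.
Atf4: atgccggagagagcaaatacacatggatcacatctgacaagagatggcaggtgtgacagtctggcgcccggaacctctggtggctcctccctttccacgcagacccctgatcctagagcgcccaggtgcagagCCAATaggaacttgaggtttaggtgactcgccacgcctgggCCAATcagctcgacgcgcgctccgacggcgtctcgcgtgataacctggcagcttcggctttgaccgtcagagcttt
Mthfd2: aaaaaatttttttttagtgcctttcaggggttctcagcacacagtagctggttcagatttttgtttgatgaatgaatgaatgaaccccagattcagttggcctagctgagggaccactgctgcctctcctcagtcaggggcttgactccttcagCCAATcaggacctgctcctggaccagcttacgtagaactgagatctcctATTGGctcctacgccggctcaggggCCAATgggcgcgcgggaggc
Psat1: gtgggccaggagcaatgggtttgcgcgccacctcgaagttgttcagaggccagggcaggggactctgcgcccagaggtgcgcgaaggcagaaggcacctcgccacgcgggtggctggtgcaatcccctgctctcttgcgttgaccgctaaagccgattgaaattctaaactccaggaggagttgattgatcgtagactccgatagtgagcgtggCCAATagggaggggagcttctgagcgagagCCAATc
Shmt2: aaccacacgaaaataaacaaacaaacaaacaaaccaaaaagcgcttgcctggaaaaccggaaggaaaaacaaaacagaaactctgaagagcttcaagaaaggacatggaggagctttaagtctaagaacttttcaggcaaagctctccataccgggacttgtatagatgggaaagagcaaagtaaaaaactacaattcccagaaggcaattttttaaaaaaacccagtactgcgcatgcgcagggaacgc
The Mthfd2 window held 3 such boxes, Atf4 and Psat1 2 each, and Shmt2 none. Another RefSeq window of Psat1, not shown, held 0. Boxes were counted over the full 250 bases, with GENCODE exon bases kept. Of the other genes Chac1, which had no counts, held 3, Phgdh and Psph 2 each, Ddit3 1, and Asns and Trib3 0. The 2 boxes of Psph lie in bases that GENCODE places in its exon, and 1 of the 2 of Phgdh reaches into such bases. Over these full 250 bases, 63.6% of the 11 RefSeq promoters of the 10 genes held a CCAAT box and 54.5% held 2 or more. The shares were 33.8% and 10.1% of 32851 promoters of the same length. This motif was chosen after the sequences had been seen, and a match is a description of letters only.

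The motif tied to ATF4 itself, the C/EBP-ATF response element, was searched as TGATG, any base, AA on both strands. It was found before Asns and Chac1 and in none of the other 8 genes' windows, that is in 18.2% of the 11 promoters against 3.45% of all. The Asns site lies at chr6:7693214-7693243 (−), in the 5′ UTR of the first GENCODE exon and 15 bases before the RefSeq start. The Chac1 site lies at chr2:119351038-119351067 (+), 185 bases before the start, with the match on the opposite strand. Asns did not differ by genotype past the threshold and Chac1 had no counts. The search covered only this pattern in the 250 bases before the start. Sites elsewhere or in another form were not sought, and whether ATF4 acts on the genes that rose was not tested. Both sites are printed with the match in capitals.
Asns: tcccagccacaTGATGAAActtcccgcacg
Chac1: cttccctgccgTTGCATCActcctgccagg

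Levels were compared between genes per kilobase of GENCODE exon length. As means over the 18 libraries, Atf4 (92.2 CPM per kilobase), Shmt2 (88.0) and Asns (85.8) were the most abundant of the 10 genes, in an order that differed between groups: Shmt2 led in FL/FL PreCFU-E (74.9, with Atf4 at 69.4 and Asns at 66.5) and Asns in FL/FL CFU-E (104.3, with Atf4 at 80.9 and Shmt2 at 71.2). Psat1 (31.2), Phgdh (25.7) and Mthfd2 (20.6, with group means from 10.5 to 39.5) came next, followed by Ddit3 (10.99) and Psph (5.95), the last enzyme of serine synthesis. Trib3 stood at 0.0872 and Chac1 at 0. The cytosolic counterpart of the SHMT2 and MTHFD2 steps was uneven: the trifunctional enzyme gene Mthfd1 was at 257.8 CPM per kilobase, above every one of the 10 genes, whereas Shmt1, which encodes the cytosolic serine hydroxymethyltransferase, was at 7.75. In the mitochondrial arm, Mthfd2l, the MTHFD2-like isozyme, was at 2.26.

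**Figure D1:**
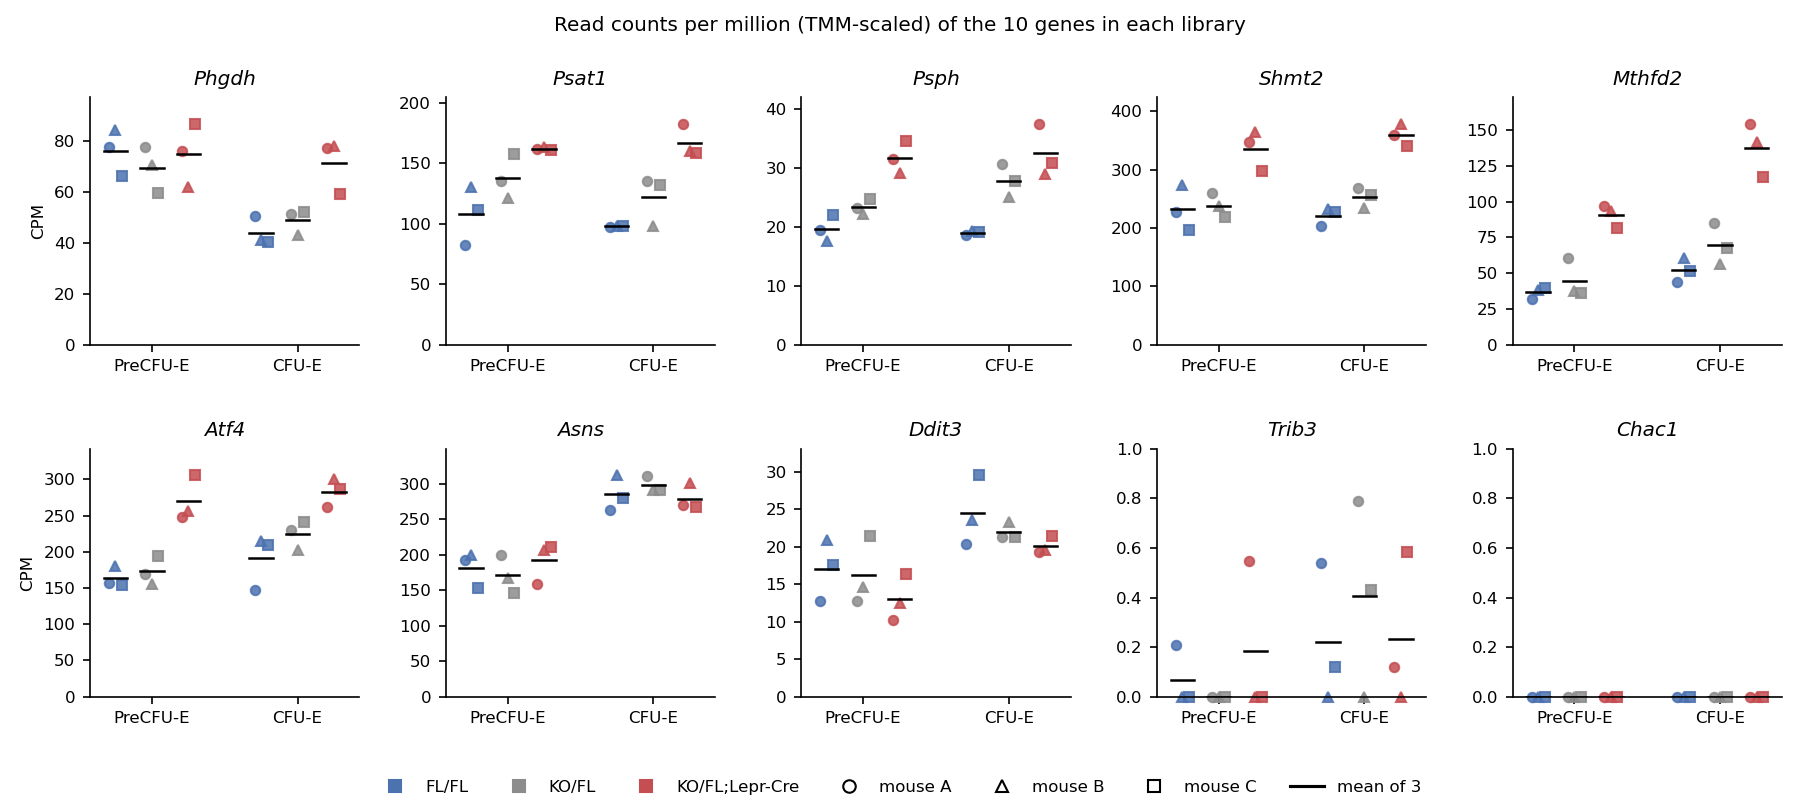
CPM (linear axes, each with its own range) of the 10 genes in the 18 libraries, with genotypes by colour, mice A, B and C by symbol and a bar at the mean of 3. Mthfd2, Shmt2 and Psph were higher in every Lepr-Cre library than in any FL/FL library of the same cell type, the genotypes overlapped for Asns within each cell type, and Chac1 was at 0 throughout.

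Chac1, a glutathione-degrading enzyme induced by ATF4 together with CHOP, had 0 counts in all 18 libraries, which allows up to 0.310 to 0.830 CPM per library at 3 counts (counting error only). Trib3, a pseudokinase that restrains ATF4 output, had 25 counts in all, spread over 8 libraries with at most 7 in one (KO/FL A, CFU-E). At this depth no difference between groups was detectable for either gene.

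In PreCFU-E, the earlier of the 2 stages, Mthfd2, Atf4, Psat1 and Shmt2 mRNA were more abundant in Lepr-Cre than in FL/FL mice, with Mthfd2 at 2.49-fold and the others at 1.45-fold to 1.65-fold. Mthfd2 (chromosome 6, 83305691 to 83325908, GRCm38) stood at 31.8, 38.5 and 39.8 CPM in FL/FL A, B and C and at 97.0, 93.3 and 81.8 CPM in Lepr-Cre mice. Every Lepr-Cre library was over every FL/FL library by a wide margin, and the log2 fold change was 1.31 (SE 0.19, adjusted p = 6.93e-05, edgeR quasi-likelihood test, Benjamini-Hochberg over all tested genes, as for each adjusted p of an edgeR fit below). Atf4 (chromosome 15, 80255184 to 80257541) was at 156.6, 180.3 and 154.3 CPM in FL/FL and 247.8, 256.4 and 305.3 CPM in Lepr-Cre mice, again with no overlap (0.73, SE 0.12, adjusted p = 0.000323).

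Shmt2 (chromosome 10, 127517123 to 127522444) was at 228.0, 274.0 and 196.7 CPM in FL/FL and 346.6, 363.8 and 298.0 CPM in Lepr-Cre mice (0.53, SE 0.12, adjusted p = 0.00852). Its spread within groups was larger relative to the difference, although the lowest Lepr-Cre library still lay above the highest FL/FL library. Psat1 (chromosome 19, 15904678 to 15947337) was at 82.5, 130.3 and 111.7 CPM in FL/FL and at 162.1, 163.5 and 160.9 CPM in Lepr-Cre mice (0.59, SE 0.14, adjusted p = 0.0110). The FL/FL libraries varied and the Lepr-Cre libraries nearly coincided.

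The other 2 genes of serine synthesis did not pass. Psph was at 19.6, 17.6 and 22.1 CPM in FL/FL and 31.5, 29.2 and 34.6 CPM in Lepr-Cre PreCFU-E, without overlap (0.69, SE 0.21, adjusted p = 0.0561). It passed with the replicate letter as a block (adjusted p = 0.0201), with all 18 libraries in 1 fit (0.0340) and in DESeq2 (0.0208), and in no other fit. Phgdh, which catalyses the first step, averaged 74.8 ± 12.3 CPM (SD, n = 3) in Lepr-Cre and 76.0 ± 8.97 CPM in FL/FL mice, with a 95% interval of the log2 fold change from -0.34 to 0.30. The stress targets did not pass either. Asns, which makes asparagine, averaged 192.2 ± 29.4 against 181.8 ± 25.4 CPM (interval -0.20 to 0.37), and Ddit3 averaged 13.01 ± 3.06 against 17.1 ± 4.04 CPM (-0.99 to 0.23).

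In this comparison 4 of the 8 tested genes rose and 0 fell, where 2.89% of 10309 tested genes rose and 3.24% fell. The groups did not overlap, Lepr-Cre higher, for 5 of the 8 genes against 12.5% of all, and the median log2 fold change was 0.56 over the 8 genes against 0.00 over all. The block on replicate letters called 1586 genes in place of 632. Psat1 did not pass without FL/FL A (adjusted p = 0.0836) and Shmt2 without FL/FL C (0.0740) or Lepr-Cre B (0.0554), and neither passed in limma on the deposited RPKM (0.117 and 0.0919 at a pseudocount of 1).

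Set against KO/FL mice, which share the null allele and lack Cre, the PreCFU-E of Lepr-Cre mice again had more Mthfd2, Atf4 and Shmt2. KO/FL A, B and C had 60.8, 37.5 and 36.1 CPM of Mthfd2, so KO/FL A lay apart from its group yet below all Lepr-Cre libraries (1.04, SE 0.19, adjusted p = 0.00246). Atf4 was at 169.5, 155.3 and 194.0 CPM in KO/FL mice (0.64, SE 0.12, adjusted p = 0.00287), and Shmt2 at 259.7, 237.4 and 219.1 CPM (0.50, SE 0.12, adjusted p = 0.0281). These 3 were all that rose of the 8 genes and 0 fell, with 1.02% of all tested genes higher and 1.16% lower. For 5 of 8 the groups did not overlap with Lepr-Cre higher, against 9.39% of all.

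Psat1 in KO/FL PreCFU-E, at 135.5, 121.6 and 157.4 CPM, lay below every Lepr-Cre library and overlapped FL/FL, and its difference from Lepr-Cre mice was 0.23 (adjusted p = 0.511). The KO/FL libraries alone against FL/FL gave 0 called genes among the 8 and 0% of 10309, with edgeR, and 350 of all genes had an unadjusted p under 0.05, Psat1 the only one of the 8. DESeq2 called 5 genes and the block on replicate letters 9, none of them among the 8. For 1 of the 8, against 4.14% of all, KO/FL lay above FL/FL without overlap. In the comparison of Lepr-Cre with KO/FL mice the block called 840 genes in place of 225 and the same number of the 8, while Shmt2 lost its call when KO/FL C (0.109), KO/FL B (0.120), Lepr-Cre A (0.111) or Lepr-Cre B (0.154) was left out, and the 3 genes did not pass in males alone (0.120 to 0.378) or in limma on RPKM (0.0783 to 0.188 at a pseudocount of 1).

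**Figure D2:**
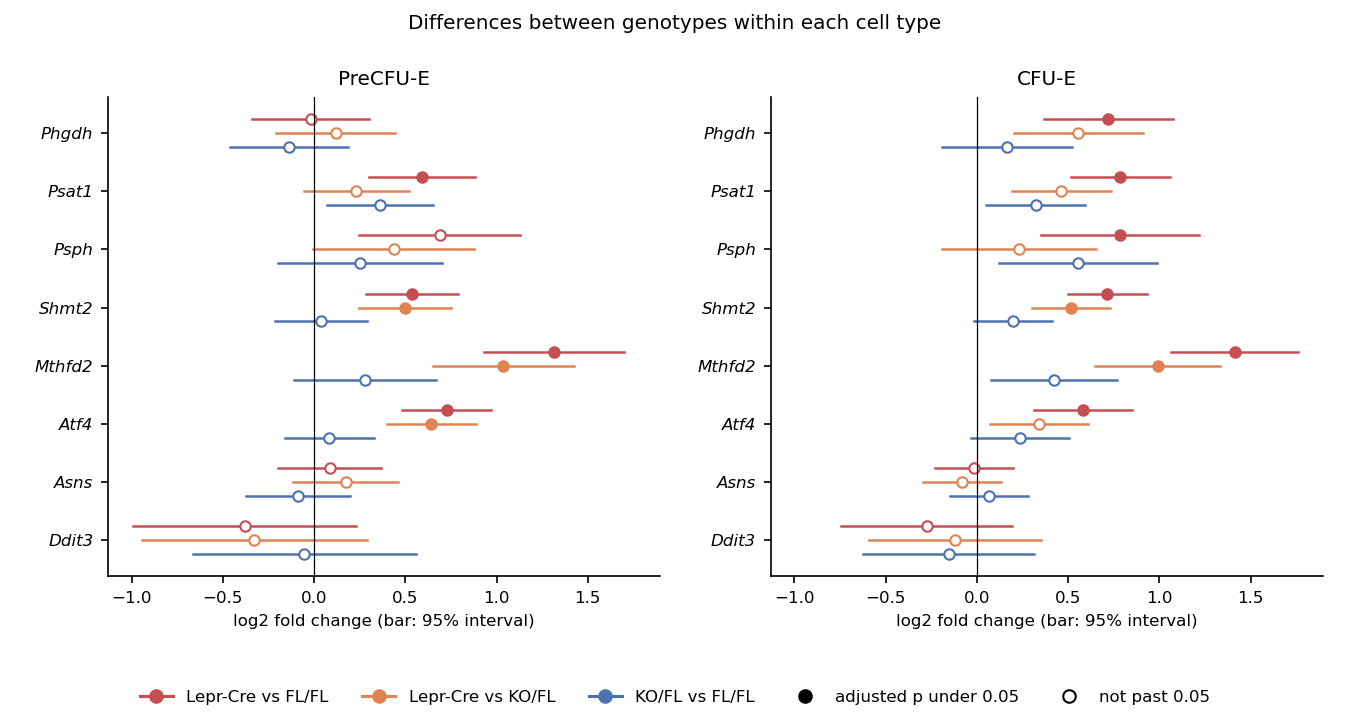
Log2 fold change (point) and its unadjusted 95% interval (bar) of the 8 tested genes for each pair of genotypes in PreCFU-E and CFU-E; filled points passed an adjusted p of 0.05. Mthfd2 was the farthest to the right in both cell types, at 1.31 and 1.41 for Lepr-Cre against FL/FL, and the points of Asns lay between -0.09 and 0.17.

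In CFU-E, the later stage, all 3 genes of serine synthesis rose in Lepr-Cre against FL/FL mice, together with Shmt2, Mthfd2 and Atf4, with Mthfd2 at 2.66-fold. Mthfd2 was at 43.9, 60.9 and 51.6 CPM in FL/FL and 154.3, 141.3 and 117.2 CPM in Lepr-Cre CFU-E (1.41, SE 0.17, adjusted p = 2.92e-05). The lowest Lepr-Cre library was well over the highest FL/FL library. The sum of the 7 stroma and endothelium markers was lower in Lepr-Cre mice here. It was 26.6 to 33.8 CPM in FL/FL, 17.3 to 31.4 in KO/FL and 11.3 to 16.5 in Lepr-Cre CFU-E, with 1 of the 7 at 0 in each. Most of the FL/FL sum was Plvap, of endothelial diaphragms (mean 27.52 CPM, and 7.485 CPM in Lepr-Cre CFU-E). Col1a2 and Pecam1 did not pass in Lepr-Cre against FL/FL CFU-E (log2 fold change 1.81 and 0.17). The part of these markers in the results was not tested. Plvap fell in Lepr-Cre against FL/FL (-1.86, adjusted p = 0.0010) and against KO/FL CFU-E (-1.40, adjusted p = 0.0274). In PreCFU-E it fell against both (-1.21, adjusted p = 0.00651, and -1.18, adjusted p = 0.0174). Shmt2 was at 203.5, 233.5 and 227.2 CPM against 360.3, 378.8 and 339.8 CPM (0.71, SE 0.10, adjusted p = 0.000227), also far apart.

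Phgdh (chromosome 3, 98313170 to 98339990) was at 50.4, 41.0 and 40.3 CPM in FL/FL and 77.2, 77.7 and 58.9 CPM in Lepr-Cre CFU-E (0.72, SE 0.17, adjusted p = 0.0146). Psat1 was at 97.3, 98.5 and 97.9 CPM against 182.7, 160.4 and 158.1 CPM (0.79, SE 0.13, adjusted p = 0.000830). Psph (chromosome 5, 129765558 to 129787449) was at 18.7, 19.4 and 19.2 CPM against 37.6, 29.0 and 31.0 CPM (0.78, SE 0.21, adjusted p = 0.0291). The FL/FL libraries of Psat1 and Psph were almost equal to one another, and in each of the 3 genes all Lepr-Cre libraries were higher. Psph shares 452 exonic bases with a transcript of Cct6a on the opposite strand, and since no source here states the strand setting of the counting its reads are uncertain to that extent.

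Atf4 itself was at 147.7, 215.1 and 209.3 CPM in FL/FL and 261.3, 300.6 and 286.9 CPM in Lepr-Cre CFU-E (0.58, SE 0.13, adjusted p = 0.0101), with FL/FL A well below the other FL/FL mice. Asns was at 263.2, 312.1 and 280.6 CPM against 269.8, 301.4 and 267.3 CPM, fully overlapping, and the interval of its log2 fold change ran from -0.23 to 0.20. Ddit3 (chromosome 10) was at 20.3, 23.6 and 29.5 CPM against 19.3, 19.5 and 21.5 CPM (interval -0.75 to 0.20). GENCODE holds 2 gene identifiers under the symbol Ddit3, which share 105 exonic bases, and the table has a single row. It also shares 68 exonic bases with Mars on the opposite strand, which had 30119 counts in all against 2550 for Ddit3, so the value of Ddit3 is uncertain.

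Of the 8 genes 6 rose and 0 fell in this comparison, against 2.08% and 2.75% of 10192 tested genes, and for 6 the groups did not overlap with Lepr-Cre higher, against 10.3% of all. The median log2 fold change was 0.72 over the 8 genes and 0.00 over all. Without the Lepr-Cre B library Atf4 (adjusted p = 0.0506) and Phgdh (0.0659) did not pass, nor Atf4 without FL/FL A (0.0627), Phgdh without FL/FL B (0.0904) or Lepr-Cre A (0.0723), or Psph without FL/FL A (0.107), FL/FL B (0.107), FL/FL C (0.0592) or Lepr-Cre A (0.127). The same 3 genes did not pass in males alone (0.102 to 0.251) or in limma on RPKM (0.0612 to 0.0893 at a pseudocount of 1), where Mthfd2, Shmt2 and Psat1 did.

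Against KO/FL mice, 2 of the 8 genes were higher in Lepr-Cre CFU-E and 0 lower, with 0.294% of all tested genes higher and 0.716% lower. They were Mthfd2, at 85.0, 56.3 and 67.7 CPM in KO/FL mice (0.99, SE 0.16, adjusted p = 0.00305), and Shmt2, at 268.4, 235.3 and 255.9 CPM (0.52, SE 0.10, adjusted p = 0.0149). For 5 of the 8 the groups did not overlap with Lepr-Cre higher, against 8.12% of all.

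The means of KO/FL CFU-E lay between those of the other genotypes for all 6 genes called against FL/FL. Psat1 was at 135.7, 98.5 and 131.8 CPM (0.46 below Lepr-Cre on the log2 scale, adjusted p = 0.0930). It passed with the replicate letter as a block (0.0247) and without a filter (0.0461), and in no other fit. Atf4 was at 230.0, 202.4 and 241.3 CPM (Lepr-Cre against KO/FL 0.34, adjusted p = 0.259), Psph at 30.7, 25.2 and 27.8 CPM (0.23, adjusted p = 0.712) and Phgdh at 51.4, 43.2 and 51.9 CPM (0.56, adjusted p = 0.136). Against FL/FL, KO/FL CFU-E had 0 calls among the 8 genes and 0% of all with edgeR, while 210 of all genes had an unadjusted p under 0.05, among them Mthfd2 (0.42), Psat1 (0.32) and Psph (0.55). DESeq2 called 1 gene and none of the 8, and for 3 of the 8, against 3.87% of all, KO/FL lay above FL/FL without overlap. For Lepr-Cre against KO/FL the block called 280 genes in place of 103, and Mthfd2 lost its call with KO/FL B left out (0.0548), and Shmt2 with KO/FL C (0.0547), Lepr-Cre B (0.0816) or KO/FL B (0.157) left out. Neither gene passed in males alone (0.243 and 0.653) or in limma on RPKM (0.0810 and 0.0830 at a pseudocount of 1).

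Markers of earlier progenitors differed along with these genes. Of the 7, Cd34 was near 0 (at most 0.446 CPM) and Myb and Kit made up most of the sum, which was 2974 to 3291 CPM in FL/FL, 2511 to 3089 in KO/FL and 1379 to 1577 in Lepr-Cre PreCFU-E, and 1215 to 1442, 1041 to 1319 and 615 to 931 CPM in CFU-E of the same genotypes. In bulk RNA, fewer cells of a type and less RNA per cell cannot be told apart, and the part of this difference in the results above was not tested. The macrophage list summed to 309 to 410 CPM in FL/FL and 78.3 to 108 CPM in Lepr-Cre PreCFU-E, nearly all of it Apoe, and its markers Adgre1, C1qa, C1qb, C1qc, Vcam1 and Cd163 were each at most 3.86 CPM in any library.

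Around the 10 genes, the other pathway genes were read from fixed lists, comparing Lepr-Cre with FL/FL mice unless stated. Of all tested genes, 2.89% rose and 3.24% fell in PreCFU-E, and 2.08% and 2.75% in CFU-E. Outside the 10, Shmt1, Mthfd1, Mthfd2l and Eif2ak1, only Aars, Cars and Prps1 (PreCFU-E) and Slc7a1 and Pdia6 (CFU-E) passed against KO/FL mice. In the mitochondrial folate arm Shmt2 and Mthfd2 were the 2 of 9 tested genes that rose in Lepr-Cre against FL/FL mice, in PreCFU-E and in CFU-E alike. The 7 others, Mthfd2l among them (15.5 ± 5.43 against 17.1 ± 2.91 CPM in PreCFU-E), had a median log2 fold change of 0.06 and 0.13. The cytosolic arm had 1 call in each cell type among 12 tested genes: the methionine synthase gene Mtr was lower in PreCFU-E (-0.37, adjusted p = 0.0462), and Slc19a1, the reduced folate carrier, was higher in CFU-E (0.47, adjusted p = 0.0438). Shmt1 did not pass in either cell type (-0.47 and 0.11), nor did Mthfd1 (0.15 and 0.17).

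Aminoacyl-tRNA synthetases, which charge tRNAs with amino acids and include ATF4 targets, had several calls, all of them rises. In PreCFU-E 4 of 12 rose, against 2.89% of all tested genes, and 0 fell, with a median of 0.34: Cars (0.63, adjusted p = 0.00344), Aars (0.51, 0.00896), Tars (0.47, 0.0333) and Nars (0.39, 0.0435). In CFU-E 6 of 12 rose, against 2.08% of all tested genes, and 0 fell, with a median of 0.38, led by Sars (0.50, adjusted p = 0.00771), Tars (0.47, 0.0183), Wars (0.46, 0.0201) and Nars (0.41, 0.0275). Of these only Cars in PreCFU-E passed when any 1 library was left out. Set against KO/FL mice, only Aars and Cars passed in PreCFU-E and no synthetase in CFU-E.

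Amino acid transporters followed in CFU-E, where 2 of 10 rose, against 2.08% of all tested genes: Slc7a1, which imports arginine and lysine, went from 176.3 ± 4.46 to 284.3 ± 16.8 CPM (0.70, adjusted p = 0.000527), and Slc7a5, the light chain of a large neutral amino acid exchanger, from 235.0 ± 10.4 to 341.8 ± 58.0 CPM (0.56, adjusted p = 0.00609). In PreCFU-E 0 of 11 passed, with a median of 0.39. Slc7a1 was also higher in Lepr-Cre than in KO/FL CFU-E (0.53, adjusted p = 0.0193).

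Of the list of ATF4 stress targets, 0 passed in either cell type, with 14 tested in PreCFU-E (median 0.05) and 12 in CFU-E (-0.05), Asns and Ddit3 included. With 2.89% of all genes higher and 3.24% lower in PreCFU-E, and 2.08% and 2.75% in CFU-E, a count of 0 in so short a list is near the background. The 5 other members above 50 CPM in CFU-E were Xpot, a tRNA exporter (317.0 against 277.1 CPM, log2 fold change 0.21), Aldh18a1, of proline synthesis (271.1 against 275.8 CPM, -0.01), Pck2, a mitochondrial phosphoenolpyruvate carboxykinase (114.7 against 147.5 CPM, -0.35), the autophagy receptor gene Sqstm1 (102.8 against 110.3 CPM, -0.09) and the translation repressor gene Eif4ebp1 (85.1 against 108.0 CPM, -0.33). None of the 5 passed (adjusted p 0.149 to 0.978).

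Among genes upstream of ATF4 or pairing with it, Eif2s1, encoding eIF2α itself, rose in PreCFU-E (0.41, adjusted p = 0.0279) and CFU-E (0.45, adjusted p = 0.0291), and Nfe2l2, a redox regulator, fell in CFU-E (-0.40, adjusted p = 0.0394). Eif2ak1 did not pass (0.17 and 0.15). Prps1, which makes the ribose donor of purine synthesis, rose in PreCFU-E (0.49, adjusted p = 0.0153) and Ppat, the first committed step, in CFU-E (0.39, adjusted p = 0.0293), while Adssl1, at low level, fell in PreCFU-E (-1.74, adjusted p = 0.0436). Of the ATF6 and XBP1 branches of the unfolded protein response, Manf rose in both cell types (0.53 and 0.55, adjusted p = 0.0297 and 0.0291) and Hyou1 in CFU-E (0.44, adjusted p = 0.0355), out of 15 tested genes. None of these 7 genes passed in every fit that left out 1 library (adjusted p up to 0.210), and neither did Mtr or Slc19a1.

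**Figure D3:**
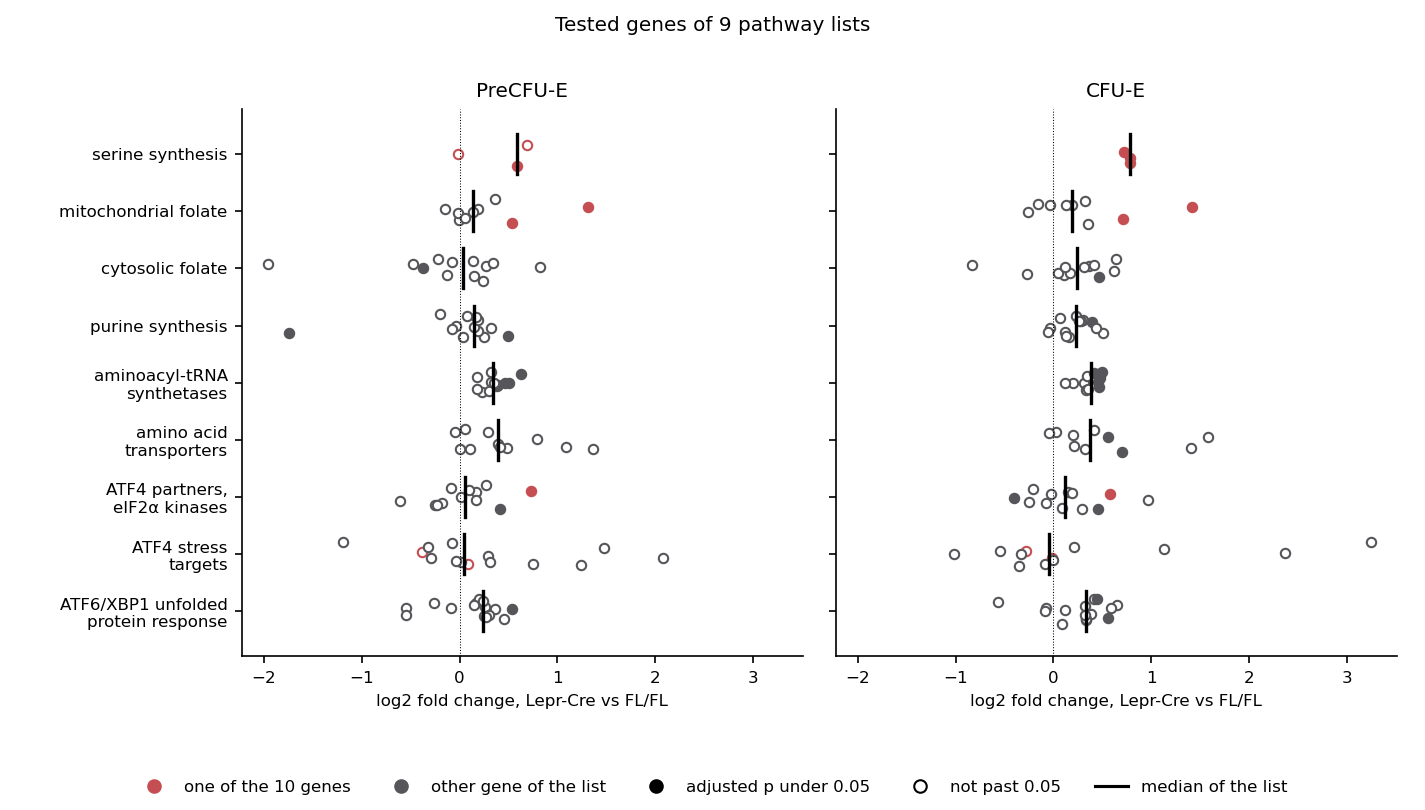
Log2 fold change of Lepr-Cre against FL/FL for each tested gene of 9 pathway lists, PreCFU-E on the left and CFU-E on the right, with red for the 10 genes, filled points for adjusted p under 0.05 and a black line at each list's median (vertical scatter is for legibility). The lines of the synthetases lay at 0.34 and 0.38 and those of the ATF4 stress targets at 0.05 and -0.05.

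Between the stages the genes sorted differently. From PreCFU-E to CFU-E, Asns rose in each genotype, by 0.65 in FL/FL (SE 0.12, adjusted p = 0.000228), 0.80 in KO/FL (SE 0.12, adjusted p = 1.83e-05) and 0.54 in Lepr-Cre mice (SE 0.12, adjusted p = 0.00468). FL/FL mice A, B and C went from 192.3, 200.3 and 152.9 CPM to 263.2, 312.1 and 280.6 CPM, so that every CFU-E library was above every PreCFU-E library. Phgdh fell in FL/FL (77.6, 84.0 and 66.3 CPM to 50.4, 41.0 and 40.3 CPM; -0.80, SE 0.16, adjusted p = 0.000674) and KO/FL mice (-0.50, SE 0.16, adjusted p = 0.0394).

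In Lepr-Cre mice Phgdh was at 75.9, 62.0 and 86.6 CPM in PreCFU-E and 77.2, 77.7 and 58.9 CPM in CFU-E (-0.07, adjusted p = 0.870). The difference between the genotypes' steps was 0.73 for Lepr-Cre against FL/FL (SE 0.23, unadjusted p = 0.00370, adjusted p = 0.233 in edgeR), so it did not pass. No other of the 8 genes passed in a test of that kind: 0 were called in the 3 interactions, with 0.354% of 10732 genes called for Lepr-Cre against FL/FL, 0% for Lepr-Cre against KO/FL and 0% for KO/FL against FL/FL. By unadjusted p under 0.05, 1, 0 and 0 of the 8 and 877, 569 and 249 of all genes passed in those tests, DESeq2 called 102, 23 and 0 genes and the mouse as a block 198, 61 and 0, with 0 of the 8 in each.

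Mthfd2 rose across the step in KO/FL (0.66, SE 0.19, adjusted p = 0.0143) and Lepr-Cre mice (0.60, SE 0.18, adjusted p = 0.0348), and in FL/FL mice the value was 0.51 (SE 0.18, adjusted p = 0.0508, or 0.00549 with the mouse as a block). Atf4 rose in KO/FL mice (0.38, SE 0.13, adjusted p = 0.0419), with 0.22 in FL/FL and 0.07 in Lepr-Cre mice. Ddit3 did not pass in any genotype (0.53, 0.43 and 0.63), and neither did Shmt2, Psat1 or Psph. In all, 1 of the 8 rose and 1 fell in FL/FL mice (8.99% and 9.3% of all genes), 3 rose and 1 fell in KO/FL (6.89% and 7.18%), and 2 rose and 0 fell in Lepr-Cre mice (3% and 4.25%). These shares of the 8 in FL/FL mice are near the background.

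The step values of Asns and Phgdh in FL/FL mice and of Asns in KO/FL mice passed with any 1 library left out. Atf4 in KO/FL mice passed in 2 of 6 such fits (adjusted p 0.0255 to 0.218), Mthfd2 in 3 of 6 in KO/FL (0.000867 to 0.123) and 1 of 6 in Lepr-Cre mice (0.0319 to 0.133), and Phgdh in KO/FL in 1 of 6 (0.0241 to 0.156). Asns in Lepr-Cre mice did not pass without PreCFU-E of Lepr-Cre A (0.0668), and in FL/FL mice the values of Atf4 and Mthfd2 passed without CFU-E of FL/FL A (0.0329 and 0.0300).

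**Figure D4:**
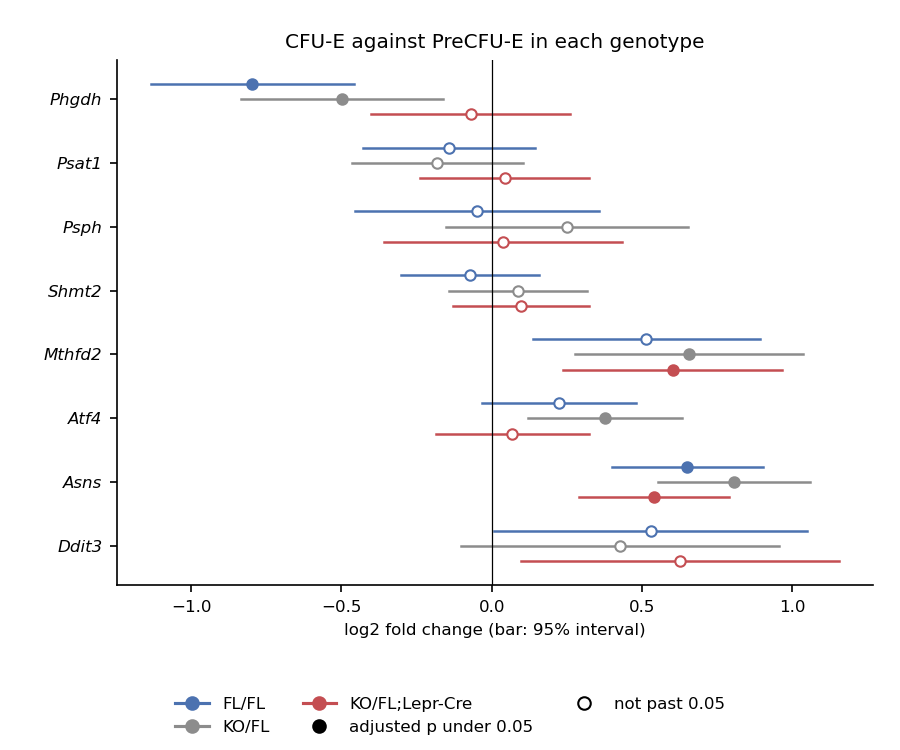
Log2 fold change of CFU-E against PreCFU-E (point) with its unadjusted 95% interval (bar) for the 8 genes in the 3 genotypes; filled points passed an adjusted p of 0.05. Asns lay to the right in all genotypes (0.54 to 0.80), and Phgdh lay at -0.80 in FL/FL and at -0.07 in Lepr-Cre mice.

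The cytosolic and mitochondrial serine hydroxymethyltransferases diverged at the step. Shmt1 fell in each genotype, from 53.4 ± 15.8 to 16.4 ± 0.747 CPM in FL/FL mice (-1.70, SE 0.22, adjusted p = 9.91e-07), by -1.58 in KO/FL (adjusted p = 5.29e-06) and by -1.13 in Lepr-Cre mice (adjusted p = 0.00101), while Shmt2 did not pass (-0.07, 0.09 and 0.10). Shmt1 shares 184 exonic bases with Smcr8 on the opposite strand. Eif2ak1, the HRI kinase, rose in each genotype, with 0.48 (adjusted p = 0.00162), 0.63 (9.29e-05) and 0.46 (0.00654) in FL/FL, KO/FL and Lepr-Cre mice, and shares 487 exonic bases with Aimp2 on the opposite strand.

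In FL/FL mice Tyms, which makes thymidylate, rose (0.51, adjusted p = 0.0165), as did the eIF2α phosphatase subunit Ppp1r15a (0.97, adjusted p = 0.00277), the leucine sensor Sesn2 (1.33, adjusted p = 0.00230) and the amino acid transporter Slc43a1 (0.87, adjusted p = 9.97e-05). Of these Slc43a1 also rose in KO/FL (0.69, adjusted p = 0.00201) and Lepr-Cre mice (0.70, adjusted p = 0.00330), and Ppp1r15a in Lepr-Cre mice (0.98, adjusted p = 0.00663). Tyms also passed in KO/FL mice, where its mean went from 73.3 CPM in PreCFU-E to 105.5 CPM in CFU-E. Tyms did not pass in FL/FL mice in 3 of the 6 fits that left out 1 library (adjusted p up to 0.0761).

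The genes whose log2 CPM followed each member most closely over the 18 libraries were sought among 8796 genes with a mean of at least 5 CPM. The 18 libraries share mice, genotypes and cell types, so these coefficients describe a pattern over groups. For Mthfd2 they were Srp72, Cpd and Gtf2h1 (Pearson r from 0.938 to 0.945), for Shmt2 Txnrd1, Podxl and Thop1 (0.935 to 0.965), and for Atf4 Prps1, Odc1 and Cct7 (0.922 to 0.940). Those of Psat1 were Dnttip2, Cish and P4hb (0.879 to 0.895) and those of Psph Podxl, Nt5dc2 and Pus10 (0.867 to 0.877). Asns was most like Ehbp1l1, Cdc6 and Sh3tc2 (0.932 to 0.938), Phgdh like Adrbk1, Runx3 and Arhgdia (0.879 to 0.913) and Ddit3 like Dkkl1, Fcho1 and Gen1 (0.831 to 0.860). Podxl was among the 3 for both Shmt2 and Psph, and none of the 10 genes was among the 3 of another.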

How the data were processed

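RNA was sequenced from 18 libraries of 5000 to 10000 sorted cells, from 2 to 6 ng of total RNA with a stranded low-input kit, per the labels' protocols, whose heading names nuclei while the text describes cells. The submitters' processing notes name STAR 2.5.2b, HTSeq and the build mm10, and give neither strand setting nor annotation. The deposited counts are whole reads per gene symbol. The deposited RPKM are, from the values, counts scaled by library total and 1 number per gene.

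Genotypes were compared on the 9 libraries of a cell type, and stages and interactions on all 18, with edgeR 4.0.16 in R 4.3.3 (TMM, filterByExpr with minimum count 10 and total 15, robust quasi-likelihood, two-sided, adjusted p threshold 0.05) on the deposited counts. SE is the log2 fold change over the square root of F. The procedure was tested on simulated data. Alternatives were DESeq2 1.42.0 (also its size factors in edgeR), limma 3.58.1 on log2 RPKM with pseudocounts 1 and 0.1, no filter, all libraries in 1 fit, blocks, single libraries left out and, added after seeing the data, males only.

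Groups came from the labels. The mouse pairs the 2 stages by design (correlation of deviations from group means 0.111 to 0.197). Across the stages, libraries of different mice with the same letter gave 0.0189 to 0.238, so these coefficients do not show an effect of the mouse. The main fit of the steps had no term for the mouse. Replicate letters, which the labels do not explain, were taken to pair genotypes where all 3 correlations passed 0.1, which held within PreCFU-E (0.109 to 0.178) and for KO/FL CFU-E with both others (0.107 to 0.189), not for FL/FL with Lepr-Cre CFU-E (0.0877 to 0.127).

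The 10 genes, the lists and the rule for other names were chosen with earlier results of these data known. The rule named at most 4 non-members per list and comparison, by smallest p among those past the threshold, Shmt1, Mthfd1, Mthfd2l and Eif2ak1 throughout, and 3 genes most like each member; not every gene it names is reported here. Xpot, Aldh18a1, Pck2, Sqstm1, Eif4ebp1, Plvap and, as overlapping genes, Mars, Smcr8, Aimp2 and Cct6a were named outside it after their values were seen. Positions are GENCODE M21, and promoter sequences are from RefSeq (GRCm38.p6).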

Additional observations from a re-analysis of the deposited data

How the results depend on the processing

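Comparisons of Lepr-Cre mice are given in the order PreCFU-E against FL/FL, PreCFU-E against KO/FL, CFU-E against FL/FL and CFU-E against KO/FL, in which 632, 225, 492 and 103 of all genes and 4, 3, 6 and 2 of the 8 genes were called. With limma on log2(RPKM + 1) the calls were 267, 59, 184 and 29 genes and 2, 0, 3 and 0 of the 8. With log2(RPKM + 0.1) they were 263, 64, 194 and 20 genes and 2, 0, 3 and 0 of the 8. In males alone they were 193, 34, 122 and 9 genes and 4, 0, 3 and 0 of the 8. With the replicate letter as a replicate block they were 1586, 840, 933 and 280 genes and 5, 3, 6 and 3 of the 8. Without a filter the last 3 comparisons gave 394, 751 and 244 genes, and DESeq2 gave 344, 755 and 229. Leaving out 1 library gave 371 to 473, 92 to 218, 226 to 610 and 19 to 101 genes, and 3 to 4, 2 to 3, 4 to 6 and 0 to 2 of the 8.

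For KO/FL against FL/FL, PreCFU-E went from 0 to 9 genes without a filter, 5 with DESeq2 and 9 with the replicate block, and CFU-E from 0 to 2 without a filter and 1 with DESeq2. Leaving out 1 library gave 0 to 1 gene in both.

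For the step in FL/FL, KO/FL and Lepr-Cre mice 1963, 1510 and 778 genes and 2, 4 and 2 of the 8 were called. Males alone gave 889, 800 and 305 genes and 2, 1 and 0 of the 8, limma on log2(RPKM + 1) and log2(RPKM + 0.1) gave 2 of the 8 for KO/FL and 1 for Lepr-Cre mice, and the mouse as a replicate block gave 2706, 2152 and 1322 genes and 3, 4 and 2 of the 8. Leaving out 1 library gave 1342 to 1684, 1047 to 1364 and 473 to 789 genes and 2 to 4, 1 to 3 and 0 to 2 of the 8. For the interaction of Lepr-Cre against FL/FL, with 38 genes, no filter gave 140, DESeq2 102, limma 22 and 16 (pseudocounts 1 and 0.1), the mouse as a replicate block 198, males alone 8, and leaving out 1 library 22 to 57. Against KO/FL these were 36, 23, 1 and 0, 61, 0 and 0 to 3, where 0 were called, and for KO/FL against FL/FL no filter gave 1.

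No called value of the 8 genes changed sign, and DESeq2 size factors and a fit of all 18 libraries kept each of these counts within 1.5 times. What causes the other changes was not tested. The replicate block changed no call of the 8 genes beyond those named with the results. Fewer libraries per group in the fits that leave libraries out leave fewer degrees of freedom. Trib3 and Chac1 are limited by depth. The planned comparison of isozyme proteins was not run.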

Other observations

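In the deposited RPKM table each gene's value equals its count divided by the library total and by 1 number that is the same in every library. Over 7871 genes that number tracked the GENCODE exon length only weakly (Pearson r of the logs 0.119, across genes, which are not independent), and was a median of 4.46 times that length, with a 10th to 90th percentile of 0.689 to 27.4. For Psph it was 47702 bases where the exons add up to 4329 bases, and for Atf4 4403 against 2358 bases. Deposited RPKM were therefore not used to rank the genes against each other, and no source used here says what the number stands for. Ratios of the same gene between libraries do not depend on it, but those after a pseudocount is added, as in the limma fits, do. For Psph in Lepr-Cre against FL/FL CFU-E the limma log2 fold change was 0.25 at pseudocount 1 and 0.61 at 0.1. In edgeR it was 0.78.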
